A study of Mus musculus with 21 samples.

Results

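The effect of the *H2al2* KO on RNA was measured in pachytene spermatocytes, the germ cells in the long middle part of the first meiotic prophase. The comparison took every library labelled as pachytene spermatocytes, 3 from *H2al2* KO and 3 from *H2al2* WT (wild-type) mice, which are 6 of the 21 libraries of the series. Each library lists read counts for 24456 genes, and 12236 genes had enough reads to be tested. The other libraries came from round spermatids, condensing spermatids and spermatozoa of both genotypes. All cells were fractionated from testis, and the labels give no strain, age, treatment or second allele for either genotype. How the KO allele was made, and which part of the gene it removes, is not given in the sources used here. Nothing in the labels says that the 3 replicates of a genotype came from separate animals. The study calls its replicates biological, those of round spermatids among them, but does not describe the pachytene libraries. Thus p-values measure the spread between these samples, which may be technical.

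*H2al2* encodes H2A.L.2, a short testis-specific variant of histone H2A. In spermatids, H2A.L.2 enters nucleosomes together with transition proteins while histones are replaced by protamines, and its loss in mice is known to disturb this exchange. The genes of H2A.L.2, of the transition proteins (*Tnp1*, *Tnp2*) and of the protamines (*Prm1*, *Prm2*) are classed as post-meiotic genes, transcribed mainly in round spermatids. Pachytene spermatocytes pair and recombine their chromosomes, silence the X and Y chromosomes, and express the piRNA machinery, a small RNA pathway that guards the germ line.

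The gene of H2A.L.2 is listed under an older symbol, *H2afb1* (RefSeq *H2al2a*, GRCm38 chromosome 2, from 17996417 to 17996958, minus strand). It is shown first with the genes whose RNA varied with it across the wild-type libraries. The RefSeq sequences of GRCm38.p6 before the start of these 5 genes follow, 250 bases each, written 5′ to 3′ in the direction of transcription. Capitals mark TGANNTCA, a palindrome that was chosen after the sequences had been read and was searched on both strands.

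H2al2a (chr2:17996959-17997208, minus strand): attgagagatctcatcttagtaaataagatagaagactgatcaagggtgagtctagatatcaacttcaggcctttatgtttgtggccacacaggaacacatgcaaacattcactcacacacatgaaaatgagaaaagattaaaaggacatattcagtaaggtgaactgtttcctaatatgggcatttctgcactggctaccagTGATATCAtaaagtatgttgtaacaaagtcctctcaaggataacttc

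Prm1 (chr16:10796824-10797073, minus strand): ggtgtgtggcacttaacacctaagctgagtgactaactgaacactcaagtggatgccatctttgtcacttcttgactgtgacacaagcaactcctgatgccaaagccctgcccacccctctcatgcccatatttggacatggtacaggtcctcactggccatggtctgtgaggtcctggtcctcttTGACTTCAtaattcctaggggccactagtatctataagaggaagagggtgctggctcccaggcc

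Prm2 (chr16:10792106-10792355, minus strand): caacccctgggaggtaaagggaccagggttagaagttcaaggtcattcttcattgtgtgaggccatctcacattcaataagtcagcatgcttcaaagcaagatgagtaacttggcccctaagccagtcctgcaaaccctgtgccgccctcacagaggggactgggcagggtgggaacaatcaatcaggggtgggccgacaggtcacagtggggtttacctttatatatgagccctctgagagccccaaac

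Tnp1 (chr1:73015900-73016149, minus strand): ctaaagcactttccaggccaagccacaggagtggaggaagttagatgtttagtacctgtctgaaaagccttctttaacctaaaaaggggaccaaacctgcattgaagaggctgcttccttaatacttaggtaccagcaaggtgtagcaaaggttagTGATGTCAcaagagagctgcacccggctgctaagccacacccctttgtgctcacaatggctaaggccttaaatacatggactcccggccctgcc

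Tnp2 (chr16:10788656-10788905, minus strand): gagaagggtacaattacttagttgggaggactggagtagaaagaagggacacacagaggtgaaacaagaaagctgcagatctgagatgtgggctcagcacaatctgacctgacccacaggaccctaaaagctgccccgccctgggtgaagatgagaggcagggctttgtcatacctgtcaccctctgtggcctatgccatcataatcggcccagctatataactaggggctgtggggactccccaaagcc

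The letters TGANNTCA stood 47 bases before the start of *H2al2a*, 64 before that of *Prm1* and 94 before that of *Tnp1*, and were not in the windows of *Prm2* and *Tnp2*. They were in 11.9% of 32851 promoters of this length, and in 11 of 37 promoters (29.7%) of genes on a list of late spermatid genes. The promoters of *Prm1*, *Prm2*, *Tnp1* and *Tnp2*, which had been read when the motif was chosen, are among the 37, and without them the letters were in 9 of 33. The full cyclic AMP response element TGACGTCA, one of the sequences that TGANNTCA includes, was in 1.55% of all promoters and in 0 of these 37. These are matches of letters, and binding was not measured here.

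The libraries held between 5799060 and 8201682 counts on genes, and 16555 to 17185 genes had at least 1 count. Markers of the labelled cell type were present: in the fit of 18 libraries, *Piwil1*, a piRNA-binding protein of spermatocytes and spermatids, averaged 1117 ± 28.9 CPM (counts per 1000000 counts on genes, SD, n = 3) in wild-type pachytene spermatocytes and 63.0 ± 11.6 in wild-type round spermatids. For *Hspa2*, a testis chaperone that spermatocytes make at high level, the means were 2135 ± 189 and 1405 ± 83.1. *Sycp3*, a component of the chromosome axis, averaged 123 ± 47.0 CPM in pachytene spermatocytes and 45.3 ± 5.95 in round spermatids. In wild-type condensing spermatids, these 3 genes averaged 196 ± 27.7, 960 ± 207 and 87.2 ± 17.9 CPM. *Sycp1*, of the synaptonemal complex, did not set the pachytene fraction apart, with 124 ± 74.2 CPM there, 94.5 ± 27.6 in round and 168 ± 18.3 in condensing spermatids. *Prm1* was present too, at 530 ± 247 CPM against 3828 ± 200 in round spermatids. In wild-type replicate 3, RNA of late spermatid genes was lower than in the other wild-type libraries. Reads not assigned to annotated exons were a larger share there. Results that rest on this library are thus given with and without it.

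No gene of the 12236 passed an adjusted p of 0.05 (edgeR quasi-likelihood test, 0%). At an unadjusted p under 0.05 there were 815 genes (6.66%), 544 of them higher in KO (4.45%) and 271 lower (2.21%). The DESeq2 Wald test called 2 genes, *H2afb1* and *Sptbn4* (0.0163%). Other alternatives on all 6 libraries called *H2afb1* alone without a filter on low counts (0.00528%) and with a trend on GC content and length removed (0.00822%), and *H2afb1* with *Gm4871* when the replicate number was a block as well (0.0164%). The fit on all 18 libraries called 4 genes (0.0276%). A covariate of late spermatid RNA, added after the data were seen, gave 9 (0.0736%), 7 of them higher, with *Vav2*, a guanine nucleotide exchange factor, among them. Without wild-type replicate 3 the edgeR test called 243 genes (1.94%), 156 higher (1.24%) and 87 lower (0.693%). The 3 values of KO lay wholly above the 3 of wild type for 752 genes (6.15%) and wholly below for 652 (5.33%). Genes are called higher or lower below for their fold changes, and none of these passed the test unless an adjusted p is given with it.

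The targeted gene was lower in every KO library. *H2afb1* had 31, 31 and 22 reads in the 3 KO libraries and 339, 307 and 99 in the wild-type libraries. These are 5.23, 5.53 and 3.36 CPM in KO (4.71 ± 1.18, SD, n = 3) and 42.0, 36.0 and 16.2 CPM in wild type (31.4 ± 13.5). The genotypes did not overlap, and wild-type replicate 3 had less than either of the other wild-type libraries. The log2 fold change was -2.75 with a standard error of 0.370 and an adjusted p of 0.484 (edgeR), the smallest adjusted p of all genes tested. Without wild-type replicate 3 it was -3.06, with an adjusted p of 5.17e-05 (edgeR). That library, set apart for its low late spermatid RNA, also had the least *H2afb1* of the wild-type libraries, so leaving it out favoured this result.

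RNA of the protamine and transition protein genes varied with *H2afb1* in the wild-type libraries. *Prm1* stood at 751, 661 and 280 CPM in wild type and at 389, 428 and 365 in KO. *Tnp2* stood at 755, 692 and 291 CPM in wild type and at 392, 447 and 374 in KO. For both genes, wild-type replicates 1 and 2 were the highest of the 6 libraries and wild-type replicate 3 the lowest, so that the genotypes overlapped.

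Against the mean of wild-type round spermatids, *Prm1* RNA was at 18.5%, 16.5% and 6.48% in the wild-type pachytene libraries and *H2afb1* RNA at 19.4%, 16.8% and 7.01%. The percentages of the targeted gene thus followed those of *Prm1* closely in each wild-type library. In KO, *Prm1* was at 9.42%, 10.4% and 8.95% of the wild-type round spermatid level and *H2afb1* at 2.37%, 2.50% and 1.54%. Whether these transcripts came from spermatids in the fraction, from free RNA or from the spermatocytes was not tested. In bulk RNA, fewer cells of a type and less RNA per cell cannot be told apart.

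Per 1000 reads of *Prm1*, *Prm2*, *Tnp1* and *Tnp2* together, the wild-type libraries held 11.5, 11.1 and 11.5 reads of *H2afb1* (11.3 ± 0.251, SD, n = 3). The KO libraries held 2.75, 2.59 and 1.84 (2.39 ± 0.484), which is 21.1% of wild type. The wild-type values lay close together although *H2afb1* itself differed between these libraries. The exact two-sided permutation test gave p = 0.1, the smallest that 3 against 3 samples allow. The same ratio was 10.7 to 11.5 in wild-type round spermatids and 10.1 to 10.2 in wild-type condensing spermatids. In KO it was 1.24 to 1.41 in round and 1.30 to 2.13 in condensing spermatids. Reads of *H2afb1* were thus still counted in every KO library of the 3 stages.

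**Figure D1:**
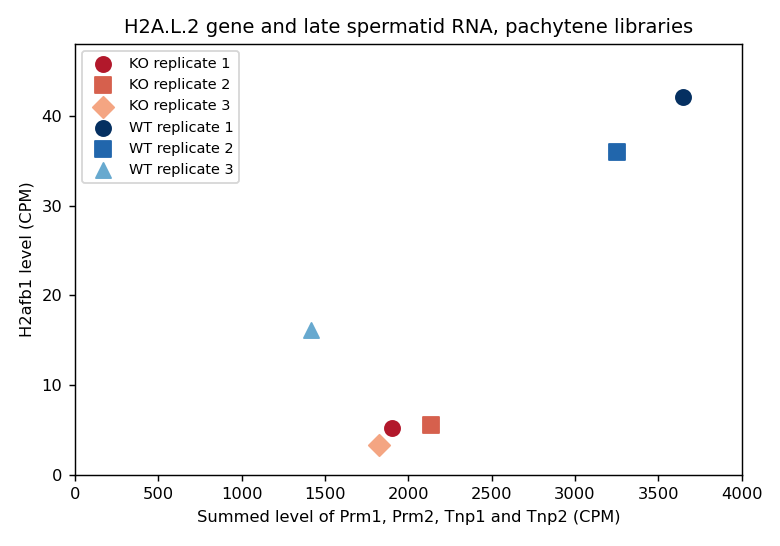
*H2afb1* (y axis, CPM) against the summed level of *Prm1*, *Prm2*, *Tnp1* and *Tnp2* (x axis, CPM) in the 6 pachytene libraries, 1 point per library. The KO points lie between 3.36 and 5.53 CPM of *H2afb1*, and the wild-type points descend from 42.0 CPM to 16.2 CPM as the x value falls.

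Of the other copies of *H2al2*, *H2al2b* and *H2al2c* on the Y chromosome, no uniquely aligned read was counted in any of the 6 libraries, which allows up to 3 counts in a library. Reads that near-identical copies share were not counted. Of the X-linked relatives, *H2al1m*, *H2al1n*, *H2al3* and *H2ap* had enough reads to be tested. *H2ap* had 71, 95 and 104 reads in KO and 206, 191 and 78 in wild type, and *H2al3* had 61, 50 and 47 in KO and 117, 99 and 41 in wild type. In both, wild-type replicate 3 lay apart from the other wild-type libraries and the genotypes overlapped in CPM. The log2 fold changes of *H2al1m*, *H2al1n*, *H2al3* and *H2ap* were -0.76, -0.49, -0.33 and -0.45, and their unadjusted p-values in edgeR's fit across all genes were 0.136, 0.251, 0.270 and 0.112.

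The RNA of late spermatids was described with a list of 30 genes that serve chromatin packing, the flagellum, the sperm sheath and sperm metabolism, all of them tested. All 30 had a fold change below 0, beside 49.1% of all genes tested. Their median log2 fold change was -0.28, beside 0.01 for all genes. Of the 30, 1 was lower at an unadjusted p under 0.05 (all genes, 2.21%) and 0 lay wholly below wild type. Their summed level was 11157, 12076 and 12152 CPM in KO and 16015, 15611 and 10422 in wild type. The median was -0.15 without wild-type replicate 1 and -0.19 without wild-type replicate 2. Without wild-type replicate 3 it was -0.57, and 17 of the 30 passed an adjusted p of 0.05 as lower (0.693% of all genes). That library had been set apart for its low late spermatid RNA, so leaving it out favoured such calls in advance. The 17 calls are therefore no separate support for a lower level in KO.

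The order of the libraries repeated through the list. Wild-type replicates 1 and 2 both stood above all KO libraries in 26 of the 30 genes (86.7%), beside 17.7% of all genes tested. Wild-type replicate 3 was the lowest of the 6 libraries in 23 of them (76.7%), beside 2332 of all 12236 genes. *Oaz3*, which encodes an ornithine decarboxylase antizyme of late spermatids, was the member that passed the unadjusted threshold, at 254, 316 and 283 CPM in KO and 508, 478 and 254 in wild type. *Ldhc*, the lactate dehydrogenase of germ cells, which spermatocytes also transcribe, stood at 2937, 3115 and 3585 CPM in KO and 3419, 3643 and 3249 in wild type, with a log2 fold change of -0.10. For *Odf2*, a protein of the outer dense fibres of the tail, the log2 fold change was -0.18.

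**Figure D2:**
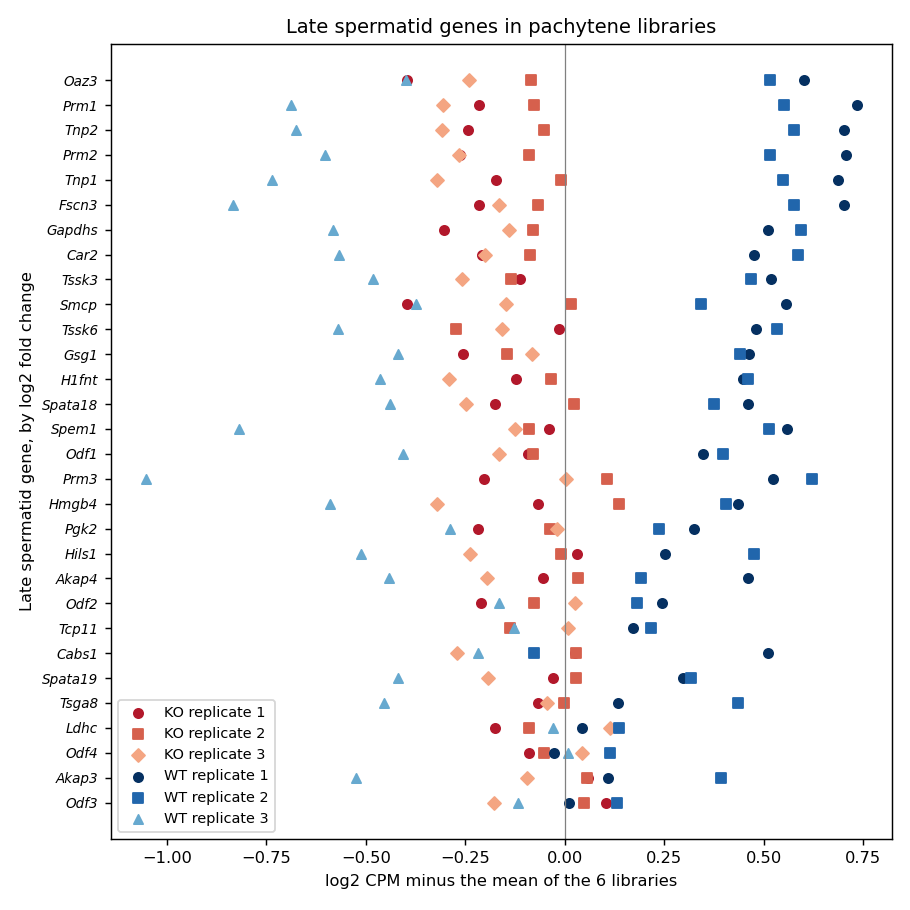
The 30 late spermatid genes (y axis, ordered by log2 fold change) in the 6 pachytene libraries, each point a library's log2 CPM minus the gene's mean over the 6 (x axis). Wild-type replicates 1 and 2 lie to the right of all KO libraries for 26 genes, and wild-type replicate 3 is the leftmost point for 23.

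Genes of round spermatids showed this order in part. In a list of 30 such genes, wild-type replicate 3 was the lowest library for 16 (53.3%) and wild-type replicates 1 and 2 stood above all KO libraries for 12 (40%, beside 17.7% of all genes). The median log2 fold change was -0.06, -0.21 without wild-type replicate 3 and 0.02 without wild-type replicate 2, and the summed level was 5250, 5579 and 5363 CPM in KO and 5502, 5012 and 5312 in wild type. A further set held the 562 genes at least 4-fold higher in wild-type condensing than in wild-type round spermatids, a rule that uses no pachytene library. None of the 30 late spermatid genes is in it, since their RNA is already high in round spermatids. Its summed level was 4637, 4247 and 3947 CPM in KO and 4138, 4539 and 4969 in wild type, and wild-type replicate 3 was the highest library here. Of its 320 genes tested, 49 were lower and 7 higher at an unadjusted p under 0.05 (2.21% and 4.45% of all genes). The median log2 fold change was -0.20, -0.39 without KO replicate 1 and -0.12 without KO replicate 3. RNA of somatic testis cells also differed between the fractions that define this set. The Sertoli list averaged 1029 CPM in wild-type condensing and 242 in wild-type round spermatids, and the Leydig list 380 and 102. The macrophage list went the other way, at 392 and 437 CPM. The set may thus hold genes of somatic cells, and their part in its values was not tested.

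The second feature that ran through the comparison was the base composition of the transcripts. Over 12161 genes, the Spearman correlation between the log2 fold change and the GC content of a gene's transcripts was -0.473, a description across genes, which are not independent replicates. Genes rich in A and T tended to be higher in KO and genes rich in G and C lower. In the same contrast, the correlation was 0.112 in round spermatids and -0.194 in condensing spermatids. With transcript length it was 0.237 in pachytene spermatocytes.

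In 10 bins of equal size, the genes with the lowest GC content (33.8% to 42.6%) had a median log2 fold change of 0.32, and the genes with the highest (58.1% to 72.5%) one of -0.12. In the lowest bin 158 genes were higher and 4 lower at an unadjusted p under 0.05, and in the highest bin 8 were higher and 71 lower. Without wild-type replicate 3 the median of the lowest bin was 0.48.

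The libraries of a genotype did not share 1 position on this axis. The Spearman correlation between GC content and a library's deviation from the mean of the 6 was -0.311, -0.468 and 0.0362 in KO and 0.276, 0.523 and -0.165 in wild type. KO replicate 3 and wild-type replicate 3 thus lay in the middle, and the ends were KO replicate 2 and wild-type replicate 2. Leaving out 1 library at a time gave correlations from -0.490 to -0.313 for the contrast, the weakest without wild-type replicate 2.

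Reads not assigned to annotated exons lay outside exons, only partly inside one, or on the other strand. Their share put the libraries in the same order as the correlation with GC content, apart from KO replicates 1 and 2, which changed places. These reads made up 47.7%, 43.9% and 37.4% of the counted reads in KO (43.0 ± 5.20, SD, n = 3) and 32.0%, 30.9% and 42.4% in wild type (35.1 ± 6.35). The wild-type replicate 3 library lay within the KO range. The exact two-sided permutation test gave p = 0.2, and 0.1 is the smallest possible. The part that base composition or the share of reads not assigned to exons has in the fold changes was not tested. Only the values with a trend on GC content and length removed are given, with the lists.

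**Figure D3:**
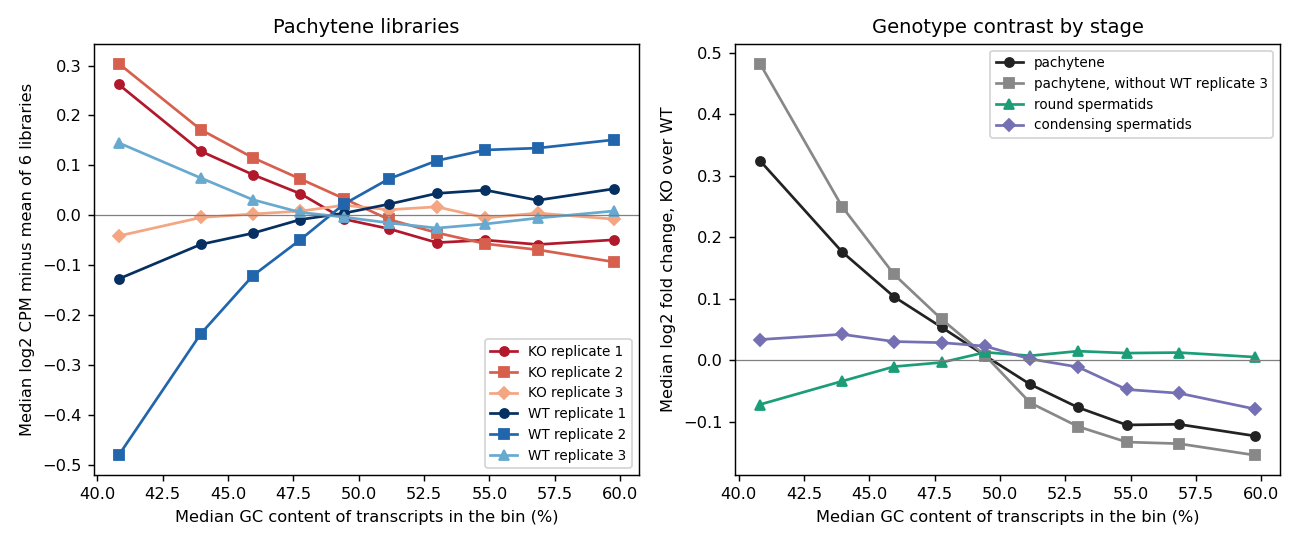
Median log2 CPM minus the mean of the 6 pachytene libraries (left, 1 line per library) and median log2 fold change of KO over wild type (right, 1 line per stage, and pachytene without wild-type replicate 3) in 10 bins of transcript GC content (x axes, %). On the left, wild-type replicate 2 runs upward and KO replicate 2 downward, and on the right the pachytene line falls from 0.32 to -0.12 while those of both spermatid stages stay between -0.08 and 0.04.

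Coding stretches of a gene at each end show the contrast in letters. Coding bases 901 to 1050 of *Sycp1*, the transverse filament of the synaptonemal complex, and of *Mypop*, a transcriptional repressor, are printed from GENCODE transcripts on GRCm38 with G and C in capitals. The coordinates of *Sycp1* span 3 exons.

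Sycp1 (chr3:102915287-102920529, minus strand): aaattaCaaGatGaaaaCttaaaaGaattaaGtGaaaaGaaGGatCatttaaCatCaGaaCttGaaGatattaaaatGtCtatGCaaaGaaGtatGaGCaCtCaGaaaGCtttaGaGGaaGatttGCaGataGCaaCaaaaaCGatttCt

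Mypop (chr7:19000880-19001029, plus strand): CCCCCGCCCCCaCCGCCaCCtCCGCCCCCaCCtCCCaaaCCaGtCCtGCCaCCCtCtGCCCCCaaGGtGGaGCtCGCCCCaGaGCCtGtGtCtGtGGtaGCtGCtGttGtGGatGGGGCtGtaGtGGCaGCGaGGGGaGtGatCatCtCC

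G and C made up 29.3% of the bases in the *Sycp1* stretch and 68.0% in the *Mypop* stretch. *Sycp1* RNA was at 305, 339 and 136 CPM in KO and 110, 65.0 and 233 in wild type, so that replicate 3 of each genotype lay between the other libraries and the genotypes overlapped. The log2 fold change was 0.94, 0.59 without wild-type replicate 2, 1.56 without wild-type replicate 3, and 0.38 with the trend on GC content and length removed. *Mypop* RNA was at 23.3, 25.7 and 30.7 CPM in KO and 36.6, 41.6 and 40.7 in wild type without overlap. Its log2 fold change was -0.58, with a standard error of 0.137, and -0.47 with the trend removed.

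The genes of the synaptonemal complex, recombination and cohesin, which hold the paired chromosomes, were described as a list with 24 members tested. Of these, 18 had a fold change above 0 (50.9% of all genes). The median was 0.34, and 0.17 with the GC and length trend removed. None of the 24 passed an unadjusted p of 0.05. The summed level was 6362, 6704 and 5077 CPM in KO and 4526, 3439 and 6130 in wild type. Wild-type replicate 2 was the lowest library for 16 of the 24, beside 26.5% of all genes. The median was 0.15 without wild-type replicate 2. Without wild-type replicate 3 it was 0.52, and 4 members passed an adjusted p of 0.05 as higher (1.24% of all genes).

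*Sycp2*, a protein of the lateral element named after its values were seen, was at 912, 888 and 385 CPM in KO and 250, 108 and 683 in wild type. *Sycp3*, its partner on the chromosome axis, stood at 214, 246 and 134 CPM in KO and 124, 83.6 and 196 in wild type. The log2 fold change of *Sycp3* was 0.56, 0.30 without wild-type replicate 2, 0.93 without wild-type replicate 3 and 0.04 with the trend removed. *Atr*, a kinase of meiotic silencing, had a log2 fold change of 0.49, 0.14 without wild-type replicate 2 and 0.90 without wild-type replicate 3, with overlapping genotypes.

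Other groups of meiotic genes lay closer to 0. Of 19 early prophase genes, 1 was higher at an unadjusted p under 0.05, *Hormad1*, a sensor of unpaired axes, with a log2 fold change of 0.68 (0.42 without wild-type replicate 2 and 0.14 with the trend removed). The median of the list was 0.10, 0.28 without wild-type replicate 3 and -0.04 without KO replicate 1. The 25 genes of late pachytene and the meiotic divisions had a median of -0.10, with 1 higher and 1 lower. The 20 regulators of the pachytene programme had a median of -0.02. The 16 genes of spermatogonia and meiotic entry had one of -0.08 (-0.33 to 0.02 with 1 library left out), and none of them passed the unadjusted threshold.

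Of 22 tested genes of the piRNA pathway, 6 lay wholly above wild type (6.15% of all genes). At an unadjusted p under 0.05, 3 were higher (4.45% of all genes), and the median of the list was 0.11. Of the 22, 16 had a fold change above 0 and 6 below (50.9% and 49.1% of all genes). *Asz1*, a mitochondrial-surface protein needed for piRNA production, was at 50.5, 44.7 and 31.3 CPM in KO and 26.8, 18.9 and 28.6 in wild type. Its log2 fold change was 0.77, and 0.47 with the GC and length trend removed. *Tdrd1* and *Tdrd12*, Tudor domain proteins of the same pathway, had log2 fold changes of 0.26 and 0.30. *Tdrd1* did not overlap between genotypes and *Tdrd12* did. *Piwil1*, at 1235, 1324 and 1306 CPM in KO and 1177, 1202 and 1232 in wild type, did not overlap, with a log2 fold change of 0.10. *Mael*, another of the most abundant members, overlapped and had a log2 fold change of -0.04.

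**Figure D4:**
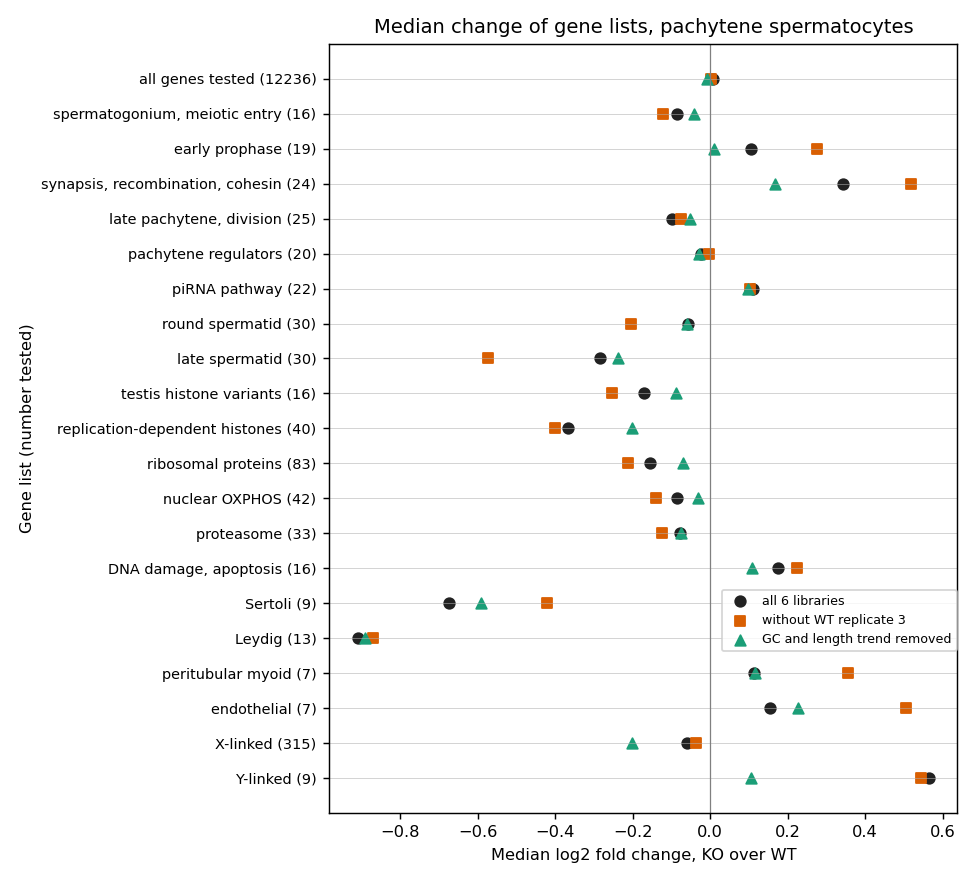
Median log2 fold change of KO over wild type (x axis) for all genes tested and for 20 gene lists (y axis, with the number of genes tested), from all 6 libraries, without wild-type replicate 3 and with the GC and length trend removed. The late spermatid median moves from -0.28 to -0.57 without wild-type replicate 3, and the Leydig median is the lowest at -0.91.

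Histone genes were lower on the median. Of 40 replication-dependent histone genes tested, whose RNA mostly has no poly(A) tail, 37 had a fold change below 0 (49.1% of all genes) and 7 were lower at an unadjusted p under 0.05 (2.21% of all genes). The median was -0.37, -0.20 with the GC and length trend removed and -0.23 without wild-type replicate 2. *Hist1h4f* was at 1.86, 1.60 and 1.37 CPM in KO and 4.47, 5.04 and 4.90 in wild type, with a log2 fold change of -1.57 and no overlap. *Hist1h2bk*, which did not overlap, and *Hist1h4i*, which did, had log2 fold changes of -0.73 and -0.99. Multiply aligned reads were not counted, and genes of this family are near copies of each other, so that the counts of single members are uncertain.

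The 16 testis histone variants tested had a median of -0.17, with 1 lower at an unadjusted p under 0.05. That gene was the targeted gene *H2afb1* itself. A list of 21 chaperones, bromodomain and other chromatin proteins was drawn up around the study, and not all of them are named there. It had a median of 0.09, with 2 higher (4.45% of all genes). Of these 2, 1 was *Atad2b*, which the study does not name. *H3f3a*, one of the genes that encode the replacement histone H3.3, was at 256, 290 and 280 CPM in KO and 243, 256 and 255 in wild type, with a log2 fold change of 0.13.

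Of 83 cytosolic ribosomal protein genes, 81 had a fold change below 0 (49.1% of all genes), with a median of -0.15 and of -0.07 with the trend removed. Of these, 14 lay wholly below wild type (5.33% of all genes) and 5 were lower at an unadjusted p under 0.05 (2.21% of all genes). *Rps14* was at 226, 242 and 245 CPM in KO and 292, 335 and 256 in wild type, with a log2 fold change of -0.31. *Rpl29* and *Rpl39* had log2 fold changes of -0.91 and -1.22. Ribosomal protein genes have many processed copies, which the count of uniquely aligned reads could split.

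Genes of energy and protein turnover had small medians. The 42 nuclear genes of oxidative phosphorylation had a median of -0.09, and 38 had a fold change below 0 (49.1% of all genes). Of the 42, 1 was lower at an unadjusted p under 0.05 and 2 lay wholly below wild type (2.21% and 5.33% of all genes). The 33 proteasome genes had a median of -0.08, and 25 had a fold change below 0. Of these, 6 lay wholly below wild type and 1 wholly above (5.33% and 6.15% of all genes), and 0 passed the unadjusted threshold in either direction. Of 12 mitochondrially encoded genes, with a median of 0.17, 1 was higher at the unadjusted threshold, *ND6*, the subunit of complex I on the light strand. It stood at 88.3, 84.7 and 65.6 CPM in KO and 53.2, 50.8 and 55.3 in wild type, with a log2 fold change of 0.58. The 16 genes of DNA damage and apoptosis had a median of 0.17 with 1 higher. The 12 immediate early and stress genes had one of -0.17 with 2 higher (4.45% of all genes).

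On the sex chromosomes, which are silenced in pachytene cells, 315 X-linked genes had a median of -0.06, which turned to 0.09 without KO replicate 3 and was -0.22 without KO replicate 1 and -0.20 with the GC and length trend removed. Of these, 8 were higher and 12 lower at an unadjusted p under 0.05 (4.45% and 2.21% of all genes). The 9 Y-linked genes had a median of 0.56, which was 0.31 without wild-type replicate 2, 0.32 without KO replicate 1 and 0.11 with the trend removed. *Eif2s3y*, a translation factor subunit, was at 19.7, 17.6 and 13.6 CPM in KO and 12.2, 9.25 and 11.1 in wild type, with a log2 fold change of 0.65 (0.25 with the trend removed). For *Uty*, a Y-linked relative of a histone demethylase, the log2 fold change was 0.75 (0.20 with the trend removed).

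Among RNAs outside the protein-coding genes, *Malat1*, a long nuclear RNA, stood at 2396, 2073 and 1124 CPM in KO and 931, 623 and 1550 in wild type. Its log2 fold change was 0.85. The 10 structural noncoding RNAs, of which it is 1, had a median of 0.14, and the 636 genes annotated as long noncoding RNA one of 0.03. The 4 snoRNA genes tested had one of -0.86, with 1 lower at an unadjusted p under 0.05.

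Genes of somatic cells of the testis were lower in part. Of 13 Leydig cell genes, 13 had a fold change below 0 (49.1% of all genes) and 7 were lower at an unadjusted p under 0.05 (2.21% of all genes). The median was -0.91, -1.48 without KO replicate 1 and -0.58 without KO replicate 3. Their summed level was 204, 136 and 102 CPM in KO and 162, 245 and 285 in wild type. The genotypes overlapped, with KO replicate 1 above wild-type replicate 1. *Insl3*, a hormone of Leydig cells, was at 27.2, 11.4 and 5.04 CPM in KO and 20.6, 33.3 and 51.5 in wild type, with a log2 fold change of -1.27 (-2.13 without KO replicate 1). *Cyp17a1* and *Hsd3b6*, enzymes of steroid synthesis, had log2 fold changes of -0.91 and -1.28. *Fdx1*, an electron carrier of steroid synthesis that germ cells also express, had one of -0.06.

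Of 9 tested genes of Sertoli cells, the supporting cells of the tubule, 3 lay wholly below wild type and were lower at an unadjusted p under 0.05 (5.33% and 2.21% of all genes). Of the 9, 7 had a fold change below 0 and 2 above (49.1% and 50.9% of all genes). The median was -0.68, and -0.42 without wild-type replicate 3. The members named below are those with the smallest p of the list. The summed level of the list ranged from 155 to 190 CPM in KO and from 158 to 210 in wild type. *Clu*, clusterin, was at 18.1, 10.9 and 8.70 CPM in KO (12.5 ± 4.90, SD, n = 3) and 22.9, 22.4 and 30.1 in wild type (25.1 ± 4.30). *Ctsl*, cathepsin L, and *Cst12*, a cystatin, had log2 fold changes of -0.84 and -2.03. The part of these cells in the results of other genes was not tested.

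The other somatic lists held few tested genes. Of 7 peritubular myoid, 7 endothelial and 2 macrophage genes, none passed an unadjusted p of 0.05, and their medians were 0.11, 0.15 and -0.06. With 1 library left out these medians took either sign, from -0.05 to 0.35, from -0.05 to 0.51 and from -0.41 to 0.25. Of 9 red blood cell genes, 0 had enough reads to be tested, 6 had no read in any library, and their sum was at most 1.17 CPM.

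The genes with the smallest p in each direction were taken among genes with a mean of at least 5 CPM and no overlap, 10 a direction. None of these passed an adjusted p of 0.05 in edgeR's fit of the 6 libraries. *Sptbn4* (chromosome 7, from 27356383 to 27447704), a spectrin of the membrane skeleton, was at 53.3, 65.6 and 116 CPM in KO and 35.2, 36.1 and 29.9 in wild type. Its log2 fold change was 1.21 with a standard error of 0.261 and an adjusted p of 0.656 (edgeR), 0.0380 in DESeq2 and 0.0356 in edgeR's fit of all 18 libraries. In edgeR's fits of the other stages, its log2 fold change was 0.86 in round spermatids with an adjusted p of 0.0495, which passed, and 0.88 in condensing spermatids with one of 0.0657. *2410141K09Rik* (chromosome 13, from 66418114 to 66441118) was at 11.1, 11.1 and 8.85 CPM in KO and 4.96, 3.28 and 4.25 in wild type. Its log2 fold change was 1.31 in pachytene spermatocytes, 1.31 in round and 0.94 in condensing spermatids, with adjusted p of 0.739 and 0.683 in edgeR's fits of those stages. Round and condensing spermatids are separate libraries, and for both genes the interaction between genotype and stage did not pass an adjusted p of 0.05 (edgeR).

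*Srsf6*, a splicing factor, was at 134, 124 and 100 CPM in KO and 81.5, 74.9 and 82.7 in wild type, with a log2 fold change of 0.58. In round and condensing spermatids its log2 fold changes were -0.03 and -0.01. *Gmfb*, a regulator of actin branching, had a log2 fold change of 0.63, and 0.25 with the GC and length trend removed.

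In the lower direction, *Ftl1*, the light chain of the iron store ferritin, was at 5.57, 4.10 and 5.04 CPM in KO and 7.81, 11.6 and 10.5 in wild type, with a log2 fold change of -1.02. *Gstm2*, a glutathione transferase, and *Ly6e*, a membrane-anchored surface protein, had log2 fold changes of -1.43 and -1.38. *Tppp2*, a tubulin-binding protein of the male germ line, was at 26.3, 27.1 and 26.1 CPM in KO and 48.3, 45.3 and 32.5 in wild type, with a log2 fold change of -0.67. *Ech1*, an enzyme of fatty acid oxidation, had one of -0.47.

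**Figure D5:**
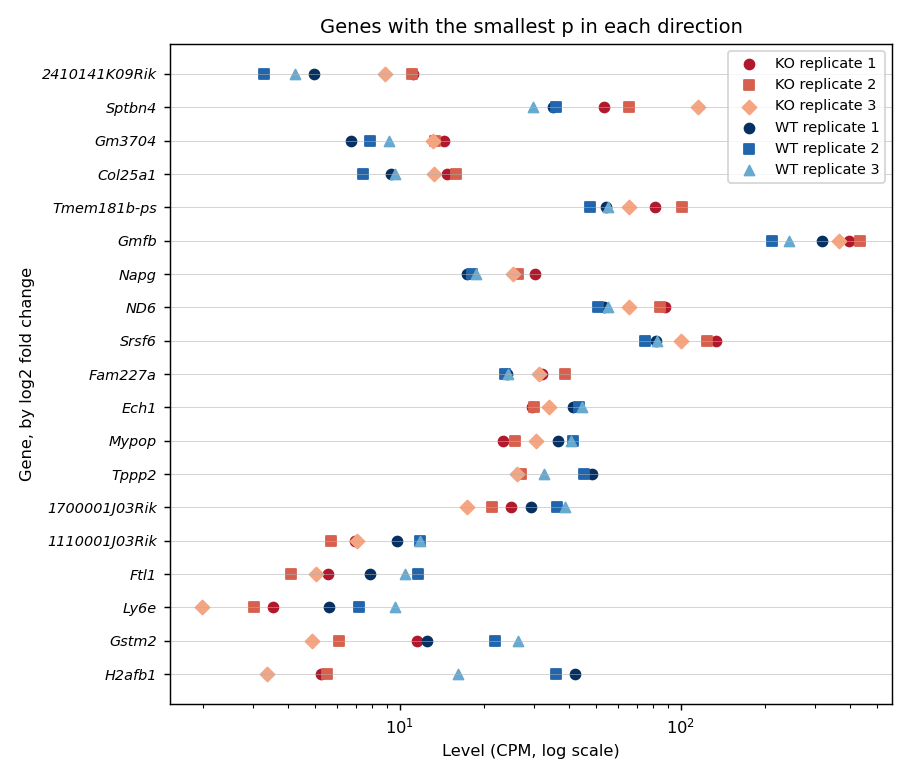
Genes with the smallest unadjusted p in each direction among genes with no overlap between genotypes (y axis, 10 higher and 9 lower, ordered by log2 fold change), with the CPM of each of the 6 pachytene libraries on a log scale (x axis). *Sptbn4* reaches 116 CPM in KO replicate 3, and *H2afb1* has its KO libraries at 3.36 to 5.53 CPM.

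The 156 genes called higher without wild-type replicate 3 had a median GC content of 41.8% and a median transcript length of 3079 bases, and the 87 called lower had 54.9% and 1041 bases. Among those with the smallest p were *Gm3414* and *Zfp758* as higher and *Prm1*, *Tnp2* and *Tppp2* as lower, all at an adjusted p of 0.0388 (edgeR). In wild-type replicate 3 itself, which that fit did not use, the value lay within or past the KO range for 138 of the 156 and 79 of the 87. *Gm3414* shows this, at 72.8, 78.6 and 35.7 CPM in KO, 19.6 and 11.1 in the first wild-type libraries and 62.3 in wild-type replicate 3. *Creb1*, a factor that binds cyclic AMP response elements, was at 42.2, 39.0 and 28.2 CPM in KO and 18.4, 14.1 and 31.1 in wild type.

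Whether the effect of the KO differed between pachytene spermatocytes and spermatids was tested as an interaction over 18 libraries and 14479 genes (edgeR). Against round spermatids 0 genes were called (0%), with 1050 at an unadjusted p under 0.05 (7.25%), and DESeq2 called 1, *Asz1*. Against condensing spermatids 1 gene was called (0.00691%), with 882 at an unadjusted p under 0.05 (6.09%). It was *Defb19*, a beta-defensin of the testis (chromosome 2, from 152576086 to 152580312).

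*Defb19* was at 1.01, 0.535 and 0.610 CPM in pachytene KO and 3.35, 3.40 and 4.25 in pachytene wild type, and the genotypes did not overlap. These values rest on few reads, 6, 3 and 4 in KO and 27, 29 and 26 in wild type. The log2 fold change was -2.31 in pachytene spermatocytes and 0.05 in condensing spermatids, a difference of -2.36 with a standard error of 0.365 and an adjusted p of 0.0311 (edgeR). It did not pass without KO replicate 2, KO replicate 3 or wild-type replicate 2. *Cst9*, a cystatin of the testis, was at 0.675, 0.357 and 0.763 CPM in pachytene KO and 3.10, 3.40 and 2.62 in wild type. Its reads numbered 4, 2 and 5 in KO and 25, 29 and 16 in wild type. In the fit of all 18 libraries both were lower in pachytene KO, *Cst9* with an adjusted p of 0.0356 and *Defb19* with one of 0.00679 (edgeR). In the same libraries, 7 of 9 Sertoli and 13 of 13 Leydig genes tested had a fold change below 0, with the values above. Their part in these differences was not tested. For *H2afb1* itself the interaction was 0.32 on the log2 scale against round and -0.07 against condensing spermatids, with adjusted p of 0.845 and 0.987 (edgeR).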

How the data were processed

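RNA of cells fractionated from mouse testis was measured in 6 libraries of pachytene spermatocytes, 3 per genotype, prepared from total RNA with ribosomal RNA removed (paired-end, stranded). The authors used STAR 2.7.11b to place reads on mm10 without trimming, counted uniquely aligned reads over exons with HTSeq on the reverse strand with strict intersection, and deposited raw counts per gene without normalization or pooling. The submitters' processing notes also name DESeq2 1.22.2. The 5 closing lines of each library that name no gene entered neither library sizes nor tests. In this count, 30.9% to 47.7% of counted reads were not assigned to annotated exons. Genotype and cell type were taken from the labels. The members and gene lists were chosen with earlier results of these data known.

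Genes were filtered with filterByExpr, scaled with TMM and tested in R 4.3.3 by the quasi-likelihood test of edgeR 4.0.16 with Benjamini-Hochberg adjustment at 0.05. CPM used TMM library sizes, and the interactions were fitted on 18 libraries with 6 group means. Gene lists were described by counts and medians, without a set test. GC content and length are medians over a gene's GENCODE transcripts, the protein-coding ones where it has any, and were known for 98.8% of the listed genes; 23218 symbols matched RefSeq, which gave gene positions and promoters, 1113 through older symbols, and 125 found no match. The GC and length trend was fitted per library with splines. Single ratios and shares were compared between genotypes with exact permutation tests (scipy 1.17.1). Test steps were tried on simulated counts.

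Named were the targeted gene, the 10 genes a direction with the smallest p at a mean of at least 5 CPM without overlap, genes called by alternatives with 5 or fewer calls, up to 5 a direction of alternatives with more, the 3 most abundant and up to 3 members with the smallest p of each list, and markers. Of these, those the text needs are given, and 1 gene of the smallest p is not reported here. *Sycp2* and the motif were chosen after values or sequences were seen. The labels do not say whether the replicate numbers pair libraries, and the main test did not pair them. The deviations of same-numbered KO and wild-type libraries correlated at -0.115, -0.175 and -0.206. Those of differently numbered libraries correlated at -0.119 to 0.246. With 3 libraries a genotype, such correlations cannot show whether libraries were prepared together. Replicates differed by more than sampling noise, with a mean chi-square per gene of 1.99 to 12.2. Alternatives were the DESeq2 1.42.0 Wald test, DESeq2 size factors, library size only, dropping the filter, and a minimum of 10 counts in every library. Further ones were a fit on 18 libraries, dropping symbols that begin with mt-, the GC and length trend, a replicate block, and leaving out each library. Dropping those symbols left mitochondrial genes such as *COX1* and *ND6* in the fit. A covariate of late spermatid RNA was added after the data were seen. Columns of spermatozoa were not used here. Counting intervals cover counting error only.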

Additional observations from a re-analysis of the deposited data

Results flagged for a closer look

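The effect of the KO on *Defb19* differed between pachytene spermatocytes and condensing spermatids by -2.36 on the log2 scale (standard error 0.365, edgeR interaction over 18 libraries, adjusted p of 0.0311). In CPM scaled over the 18 libraries, all 3 pachytene KO libraries lay below all 3 pachytene wild-type libraries. The KO libraries stood at 0.495 to 0.939 CPM and the wild-type libraries at 3.16 to 3.77. The KO values rest on 6, 3 and 4 reads, so *Defb19* was not in the fit with a minimum of 10 counts in every library. On the same scale, the genotypes overlapped in condensing spermatids, at 64.7, 59.8 and 59.5 CPM in KO and 72.4, 47.7 and 56.6 in wild type. With the replicate number as a block no gene was called in this interaction.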

How the results depend on the processing

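Against 0 genes called by edgeR on the 6 libraries, the DESeq2 Wald test called 2, no filter on low counts 1, the fit on all 18 libraries 4 (*Cst9*, *Defb19*, *H2afb1* and *Sptbn4*), the GC and length trend 1 and the covariate of late spermatid RNA, added after the data were seen, 9. Leaving out 1 library gave 0 to 243, the 243 without wild-type replicate 3. The number at an unadjusted p under 0.05 was 1307 without a filter, 1982 with all 18 libraries and 279 to 2607 with 1 library left out. A replicate block left 0 calls, and 442 were at an unadjusted p under 0.05, and the block with the GC and length trend called 2, *Gm4871* and *H2afb1*. *H2afb1* passed an adjusted p of 0.05 with log2 fold changes of -2.76 (DESeq2), -2.78 (no filter), -2.77 (18 libraries), -2.60 (GC and length trend), -2.54 (block with that trend) and -2.18 (covariate), and ranged from -3.06 to -2.49 with 1 library left out. Under the covariate, which is built from such genes, the log2 fold changes turned to 0.087 for *Prm1*, 0.031 for *Prm2*, 0.16 for *Tnp1* and 0.078 for *Tnp2*. The Sertoli median ranged from -0.99 to -0.42 and the Leydig median from -1.48 to -0.58 with 1 library left out. The interaction with round spermatids called 1 gene in DESeq2 and 0 to 1 with 1 library left out. That with condensing spermatids called 0 with the block and 0 to 4 with 1 library left out, 4 without wild-type replicate 3. The log2 ratio of the summed genes higher in condensing than in round spermatids was -0.09 at 4-fold and -0.29 at 8-fold. The cause of these differences was not tested. Counts of 22 to 31 reads limit *H2afb1* in KO, and counts of 6, 3 and 4 reads limit *Defb19* in pachytene KO. All tests are limited by 3 libraries a genotype.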
